A study of Rattus norvegicus with 24 samples.

Results

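Cxcl13 and 8 other genes of lymphoid tissue were followed across 24 microarrays of rat thyroid glands. The set holds the lymphoid chemokines Cxcl13, Ccl19 and Ccl21, their receptors Cxcr5 and Ccr7, and the B cell genes Cd79a, Cd79b, Ms4a1 and Pax5. Members were the non-control probes carrying one of these 9 symbols on the array, which gave 8 genes with 1 probe each among 30367 probes. No probe carried the symbol Pax5; a probe named RGD1565236 on the array matches Pax5 through its RefSeq accession, and its values are given apart from the others. The set was chosen by the acrylamide difference of Cxcl13 in these same arrays, so the Cxcl13 differences between acrylamide and control are given as descriptions with no test.

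The glands came from RccHan Wistar rat pups. In the acrylamide groups the dams were given 3 mg per kg body weight per day in drinking water starting at gestational day 6, and dosing went on in the pups up to postnatal day 35 ± 3; control animals drank tap water. The 6 groups of 4 arrays were acrylamide and control glands of females collected at 10 PM (night females), of males collected at 10 PM (night males) and of females collected at 10 AM (morning females). All are whole excised glands, so fewer cells of a type and less RNA per cell cannot be told apart. The labels do not tie a replicate to an animal, and p-values therefore measure the spread between these samples.

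Cxcl13 is the chemokine that draws B cells into follicles through the receptor Cxcr5, and stromal cells of lymphoid tissue, among them follicular dendritic cells, are its best known source. Ccl19 and Ccl21 act on Ccr7 to bring T cells and dendritic cells to the neighbouring zones. Cd79a and Cd79b form the signalling part of the B cell antigen receptor, Ms4a1 encodes the surface protein CD20, and Pax5 is the transcription factor that sets B cell identity. The question put to the arrays was whether low Cxcl13 went together with low B cell transcripts.

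The B cell readout rests on 3 probes, and their 60-base sequences are shown because they define what was counted as B cell signal. On the rn4 build they lie at chr1:80193363-80193422 (plus strand, Cd79a), chr10:95703614-95703673 (minus strand, Cd79b) and chr1:213764136-213764195 (minus strand, Ms4a1). Of the Cxcl13 probe at chr14:15127379-15127438 (minus strand, rn4) the first 30 bases are shown.
Cd79a: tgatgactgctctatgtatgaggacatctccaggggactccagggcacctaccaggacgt
Cd79b: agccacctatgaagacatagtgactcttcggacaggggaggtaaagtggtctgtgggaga
Ms4a1: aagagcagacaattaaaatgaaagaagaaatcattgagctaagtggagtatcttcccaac
Cxcl13: aagctatatgtgtgaatcctactgccagat

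Levels are log2 processed signal minus the 75th percentile of the array, so 0 stands for that percentile, and differences are acrylamide minus control on the same log2 scale. Per array, 71.5% to 82.3% of spots stood well above background. A list of 13 thyroid follicular genes was tested as a check of the tissue, and its mean lay between 1.22 and 2.81 on 23 arrays. On acrylamide replicate 1 of morning females it was -3.37, so that array goes against its tissue label. Acrylamide replicate 2 of morning females had a T cell and thymocyte list mean of 0.94, the highest of the 24 arrays, and acrylamide replicate 4 of night males a parathyroid list mean of -3.51. The Cxcl13 differences are given with and without these 3 arrays. A list of oesophageal epithelium genes had a mean of 0.75, -1.40, 1.52 and -2.98 on the acrylamide arrays of morning females, against -2.60, -1.75, -2.47 and -2.75 on their controls. Acrylamide replicates 1 and 3 stood above all of these controls by the widest margin, and replicate 3 also had a parathyroid mean of -3.42, so the morning difference is given without replicate 3 too.

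Cxcl13 was well above background on all 24 arrays and its mean was lower with acrylamide in each of the 3 strata. In morning females it lay at -2.89, -1.07, -1.96 and -1.93 on the acrylamide arrays, against -0.04, 0.15, 0.15 and 0.29 on the control arrays. The groups did not overlap, and acrylamide replicate 1, the array with little thyroid signal, was the lowest of all. The difference was -2.10 (SE 0.31), an acrylamide level 0.233 times that of controls, and without the 3 arrays named above it was -2.08 (SE 0.29). Leaving out acrylamide replicate 3 as well gave -2.07 (SE 0.38), a value that rests on acrylamide replicate 4 alone, which is assumed to vary like the other groups. With slide as a term it was -1.996 (SE 0.32). Within slides it was -1.60 on slide 3 (2 acrylamide and 3 control arrays) and -2.70 on slide 4 (2 acrylamide arrays and 1 control array).

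In night females Cxcl13 lay at -1.20, -0.17, -0.68 and -0.52 on the acrylamide arrays, against 0.45, 0.54, 0.41 and -0.45 on the control arrays. The groups overlapped, since control replicate 4 stood well under the other controls. The difference was -0.88 (SE 0.31), or 0.543 times the control level. Leaving out that control gave -1.11, and leaving out acrylamide replicate 1 gave -0.70, while without the 3 arrays it was -0.88 (SE 0.24), all from other strata.

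In night males the levels were -0.70, -0.55, -0.29 and -1.20 with acrylamide, against -0.53, 0.41, 0.01 and -0.10 in controls. These groups overlapped as well, through control replicate 1. The difference was -0.63 (SE 0.31), or 0.644 times the control level, and -0.46 (SE 0.26) without the 3 arrays, which takes out acrylamide replicate 4 here.

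**Figure D1:**
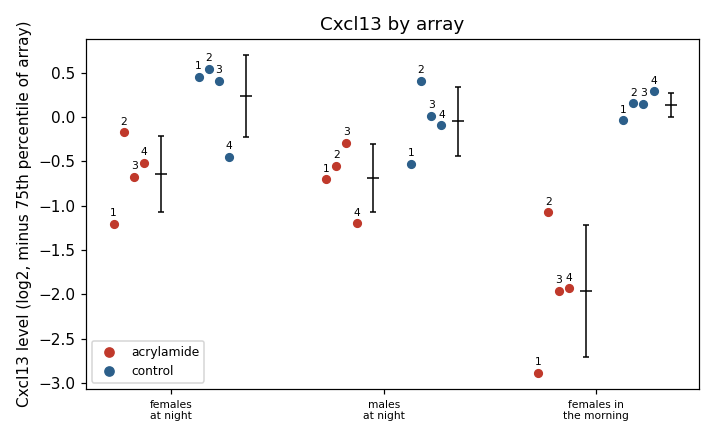
Cxcl13 level of each array (vertical axis, log2 minus the 75th percentile of the array) in the 3 strata (horizontal axis), acrylamide left of control; numbers are replicates, and the black marks are the group mean with its SD (n = 4). Only in morning females do all 4 acrylamide arrays, from -2.89 to -1.07, lie under all of the controls.

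Ordered by mean (SD, n = 4 each), the acrylamide groups lay at -1.96 ± 0.74 in morning females, -0.69 ± 0.38 in night males and -0.64 ± 0.43 in night females. The control groups followed at -0.05 ± 0.38 in night males, 0.14 ± 0.14 in morning females and 0.24 ± 0.46 in night females. The acrylamide groups of night males and night females were closer than either SD, as were the control groups of morning females and night females. The control groups of night males and morning females were farther apart than the SD of the morning females but not than that of the night males. Averaged over the strata the difference was -1.21 (SE 0.18). Of 20318 genes, 11% had a lower acrylamide mean in all 3 strata, and in morning females 6.7% had all acrylamide arrays under all control arrays; Cxcl13 was picked for its place among them.

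B cell transcripts were scarce. Cd79a was well above background on 7 of 24 arrays, Cd79b on 5 and Ms4a1 on 1, and on 17 arrays none of the 3 was. Cxcl13 on those 17 arrays ran from -2.89 to 0.54, which is the whole range seen.

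The clearest of these is acrylamide replicate 1 of night females, the 1 array on which all 3 genes were detected. Cd79a was at -3.80 there, against -6.84, -7.27 and -7.27 on the other acrylamide arrays and -6.14, -7.70, -7.66 and -7.43 on the control arrays of that stratum. Cd79b was at -1.38, against -7.81, -8.10 and -6.94 on the other acrylamide arrays and -6.39, -6.41, -7.71 and -7.88 on control arrays. The same array was highest for both genes and for Ms4a1 (-4.87), and it had the lowest Cxcl13 of its stratum (-1.20).

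A gene of the high endothelial venule list was also high on this array. Glycam1, a mucin of high endothelial venules, was at -0.67, against -5.93, -7.51 and -6.23 on the other acrylamide arrays and -6.41, -6.96, -7.52 and -7.06 on control arrays of night females. The high endothelial venule list, with 6 tested genes, had a mean of -2.63 on this array, against -3.60, -3.64, -3.80 and -3.89 on those controls. That mean includes Glycam1, so it does not show that other genes of the list were higher. The mean of the wider B cell list was -1.68 on this array, and between -3.97 and -2.44 on the remaining arrays.

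High Cd79b and Glycam1 were also seen together on a control array. Control replicate 3 of morning females had Cd79b at -3.35 and Glycam1 at -0.32, and its Cxcl13, at 0.15, was within 0.14 ± 0.14 (SD, n = 4) of its group. The other B cell readouts stood out little or not at all there. Cd79a was at -4.56, against -4.88, -4.81 and -4.82 on the other controls of that stratum. Ms4a1, at -6.58, was not well above background. The wider B cell mean, at -2.53, lay within the control range of -3.09 to -2.44. Acrylamide replicate 3 of night males had Cd79a (-6.15) and Cd79b (-5.44) above background and the highest Cxcl13 (-0.29) of the 4 acrylamide males. The remaining arrays with at least 2 of the 3 genes above background were acrylamide replicates 2 and 3 of morning females, with Cxcl13 at -1.07 and -1.96. Over these 5 arrays, Cxcl13 was the lowest of its group on 1, the highest on 2 and in between on 2.

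**Figure D2:**
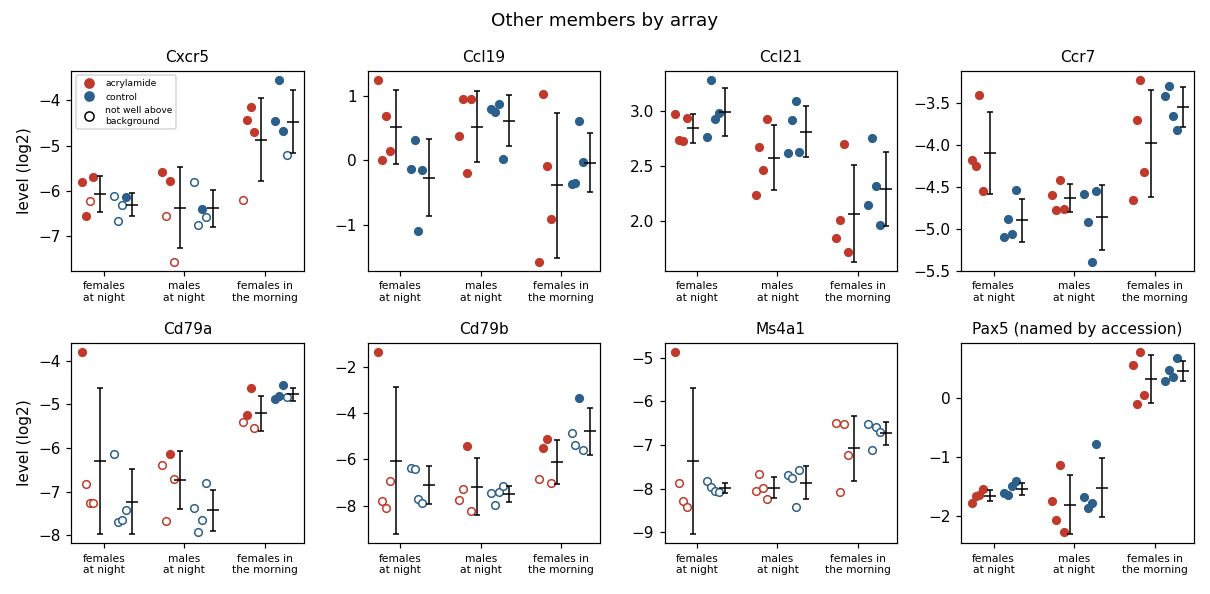
Level of the other 8 genes on each array (vertical axes, log2 minus the 75th percentile of the array) in the 3 strata (horizontal axes), acrylamide left of control, with group mean and SD (n = 4); open symbols are not well above background. Acrylamide replicate 1 of night females stands apart for Cd79a (-3.80), Cd79b (-1.38) and Ms4a1 (-4.87).

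None of the 5 tested genes other than Cxcl13, nor Pax5, passed limma's test (Benjamini-Hochberg adjusted p under 0.05 over 20318 genes) in any acrylamide comparison. The share of all genes that passed was 0% in night females, 0% in night males, 2.08% in morning females and 0.00492% for the mean of the strata. Cd79b and Ms4a1 were under the filter on dim probes and were not tested. With 4 arrays a group the intervals are wide, and a p above the threshold does not show that a gene was alike.

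Among the B cell genes, the Cd79a difference was 0.94 (SE 0.56) in night females, 0.70 (SE 0.56) in night males and -0.44 (SE 0.56) in morning females, with limma adjusted p of 1.00, 0.55 and 0.648. Without acrylamide replicate 1 the value in night females was 0.11, and with normexp background correction and quantile normalization it was 0.25. In controls of both night strata Cd79a was never well above background, and each acrylamide group had 1 array well above it. These night differences thus compare mostly signals near background. In morning females, where Cxcl13 differed most, Cd79a was at -5.41, -5.24, -4.62 and -5.55 with acrylamide and at -4.88, -4.81, -4.56 and -4.82 in controls. These groups overlapped, and the 95% interval of the difference ran from -1.60 to 0.73.

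The Pax5 probe was well above background on all 24 arrays, unlike the other B cell genes. On acrylamide replicate 1 of night females it was at -1.77, against -1.66, -1.65 and -1.54 on the other acrylamide arrays and -1.60, -1.65, -1.49 and -1.41 on control arrays. Within night females it was thus lowest on the array where Cd79a, Cd79b and Ms4a1 were highest, and it was left out of the B cell mean used below. Its acrylamide differences were -0.12, -0.28 and -0.13 (SE 0.24 each) in night females, night males and morning females.

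The receptor Cxcr5 was detected above background in 13 of the 24 arrays. In morning females it lay at -6.19, -4.44, -4.15 and -4.69 with acrylamide and at -4.45, -3.55, -4.67 and -5.20 in controls. The groups overlapped, and the difference was -0.40 (SE 0.43), against 0.24 in night females and 0.02 in night males.

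Ccr7, the receptor of Ccl19 and Ccl21, had the smallest unadjusted limma p of these genes in night females. It lay at -4.17, -4.25, -3.40 and -4.55 with acrylamide and at -5.10, -4.89, -5.07 and -4.54 in controls. Only the lowest acrylamide array and the highest control array overlapped. The difference was 0.80 (SE 0.27, limma adjusted p = 1.00), with 0.23 in night males and -0.43 in morning females, and in night females it was 0.33 with normexp and quantile normalization. The acrylamide array with the highest Ccr7, replicate 3, was also the one with the highest T cell list mean (-0.80) of that stratum; the part of T cells in the difference was not tested.

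The chemokines Ccl19 and Ccl21, the ligands of Ccr7, were well above background on all 24 arrays. The Ccl21 differences were -0.14, -0.24 and -0.23 (SE 0.21 each) in night females, night males and morning females. Ccl19 differed by 0.79, -0.09 and -0.35 (SE 0.44 each) in the same order. In morning females Ccl19 ranged from -1.58 to 1.03 over the acrylamide arrays and from -0.37 to 0.61 over the controls, so the acrylamide range enclosed the control range.

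Within groups, the level of Cxcl13 was compared with each other gene by correlating deviations from the 6 group means over 24 arrays, with p from 100000 shuffles within groups. Pearson's r was -0.23 with Cd79a (permutation p = 0.324), -0.05 with Cd79b (permutation p = 0.839) and -0.47 with Ms4a1 (permutation p = 0.0588). Spearman's rho was -0.28, 0.11 and -0.36 (permutation p = 0.238, 0.655 and 0.137). After Benjamini-Hochberg adjustment over all 36 pairs of the 9 genes the Pearson p-values were 0.815, 0.915 and 0.424, and no pair in the family passed.

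Leaving out the 2 arrays farthest from the median of the B cell gene gave r = -0.10 with Cd79a, 0.19 with Cd79b and -0.42 with Ms4a1. Within the 8 arrays of each stratum r with Cd79b was -0.44 in night females, 0.47 in night males and 0.34 in morning females. For Ms4a1 it was -0.52, 0.13 and -0.82, although Ms4a1 was above background on 1 array only. With the other genes the pooled r ran from -0.08 (Pax5) through 0.00 (Ccl21), 0.09 (Ccr7) and 0.23 (Ccl19) to 0.26 (Cxcr5), and rho from -0.20 to 0.06.

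**Figure D3:**
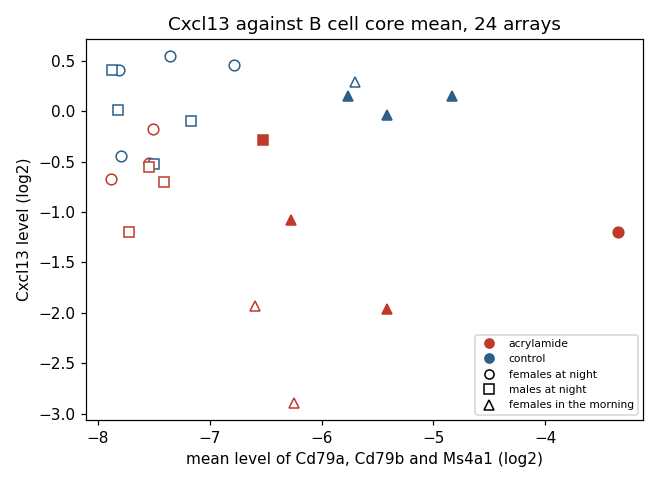
Cxcl13 level (vertical axis, log2) against the mean level of Cd79a, Cd79b and Ms4a1 (horizontal axis, log2) on 24 arrays; colour gives treatment, shape the stratum, and filled symbols have at least 1 of the 3 genes well above background. The array with the highest B cell mean, -3.35, has Cxcl13 at -1.20.

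The mean of Cd79a, Cd79b and Ms4a1 was then placed in the fit as a covariate. On 17 of the 24 arrays none of these genes was well above background, so the mean measured B cell content poorly. A Cxcl13 difference that changes little with this covariate therefore cannot tell whether it follows B cell content. The Cxcl13 difference became -0.79 (SE 0.33) in night females, -0.60 (SE 0.31) in night males and -2.17 (SE 0.32) in morning females. These are 89.9%, 95.2% and 103% of the differences without a covariate. The slope of Cxcl13 on the B cell mean was -0.10 (SE 0.11). Without acrylamide replicate 1 of night females, which has by far the highest B cell mean, the slope was 0.20 (SE 0.24) and the differences in night females, night males and morning females were -0.65, -0.69 and -1.96 (SE 0.33, 0.31 and 0.35). Using Cd79a, Cd79b or Ms4a1 alone gave -0.76, -0.87 and -0.71 in night females. The values were -0.54, -0.63 and -0.67 in night males and -2.16, -2.12 and -2.20 in morning females. With the mean of the wider B cell list they were -0.95, -0.59 and -1.98 (SE 0.33, 0.32 and 0.36) in night females, night males and morning females. The slope of Cxcl13 on that mean was 0.22 (SE 0.30).

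Means of other cell type lists moved the difference more in single strata. With the thyroid follicular mean it was -1.71 (SE 0.33) in morning females, where 13 of 13 follicular genes were lower with acrylamide and the median of their differences was -1.92, against -0.11 over all genes. Acrylamide replicate 1, at -3.37, sets most of that size: without it the median was -0.74, with 13 of 13 still lower. Of these genes, Foxe1 and Duox2, a thyroid transcription factor and the enzyme that makes peroxide for hormone synthesis, passed the test (-1.14, SE 0.26 and -0.82, SE 0.20, limma adjusted p = 0.0394 and 0.043). Neither passed without acrylamide replicate 1 or without any 1 of the 4 controls of morning females (limma adjusted p from 0.0521 to 0.168). Both passed without acrylamide replicate 2, 3 or 4 (limma adjusted p from 0.00576 to 0.0389). With the macrophage mean the difference in night males was -0.37 (SE 0.35), with 11 of 12 macrophage genes lower there (median -0.48, all genes 0.00) and none past the test.

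With the oesophageal mean the Cxcl13 difference was -0.90, -0.65 and -1.85 (SE 0.31, 0.31 and 0.38) in night females, night males and morning females. In morning females 9 of 11 oesophageal genes were higher with acrylamide, with a median difference of 2.61, and without acrylamide replicates 1 and 3 the median was 0.35 (6 of 11 higher). Krt13, a keratin of stratified epithelia, was higher (4.78, SE 1.15, limma adjusted p = 0.0415) and Dsc3, a desmosomal cadherin, lower (-1.44, SE 0.33, limma adjusted p = 0.0393). Without acrylamide replicate 1, 0 oesophageal genes passed. Without acrylamide replicate 4, Krt13 and Dsc3 passed (limma adjusted p = 0.000742 and 0.00787). So did Krt4, Krt5, Krt14, Krt15, Sprr1a, Sprr3 and Tgm1, while Dsg3 and Tp63 did not. Without acrylamide replicate 2, Krt13, Dsc3, Krt4, Krt14, Krt15 and Sprr3 passed, and without acrylamide replicate 3, Krt13, Dsc3 and Sprr3 did. Without control replicate 4 of morning females only Dsc3 passed (limma adjusted p = 0.0437), and no gene of the list did without any other control of that stratum. Over all genes the count past the threshold ran from 3 to 2129 when any 1 array was left out. The lowest was without control replicate 2 of morning females and the highest without acrylamide replicate 3. The count over all genes without acrylamide replicate 4 is not given here. The oesophageal calls in that setting therefore cannot be set against the share of all genes. The part of these cells in the Cxcl13 difference was not tested beyond these values.

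The parathyroid mean gave -0.87 in night females, -0.43 in night males and -1.87 in morning females. In night males the parathyroid list ranged from -3.51 to 1.72 over the acrylamide arrays and from 0.97 to 1.96 over the controls. With the T cell and thymocyte mean the difference was -1.03, -0.70 and -2.11 in the 3 strata. The mean of the follicular dendritic and lymphoid stromal list, the cells best known to make Cxcl13, gave -0.89, -0.67 and -2.10.

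**Figure D4:**
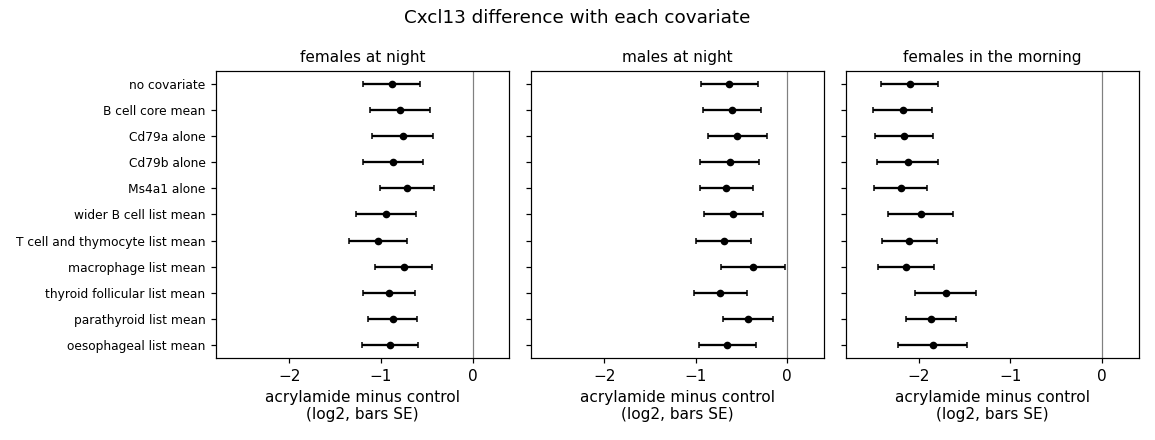
Cxcl13 difference, acrylamide minus control (horizontal axis, log2, bars are SE), in each stratum with no covariate and with each covariate in the fit (vertical axis). With the B cell core mean the differences are -0.79, -0.60 and -2.17; with the oesophageal mean they are -0.90, -0.65 and -1.85, and the value nearest to 0 is -0.37, in night males with the macrophage mean.

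The other genes of these pathways were taken from lists. Of 15 tested genes in the wider B cell list, 0 passed in any acrylamide comparison; the median difference was 0.17 in night females (10 positive), -0.11 in night males (6 positive) and -0.67 in morning females (5 positive), against 0.02, 0.00 and -0.11 over all genes. Without acrylamide replicate 1 of night females the median there was -0.06 (6 positive), and without acrylamide replicate 1 of morning females it was -0.38 in that stratum (4 positive). Leaving out acrylamide replicate 2 or 3 of morning females brought 1 and 3 of the 15 genes past the threshold there. Over all 20318 genes, 2129 passed there without replicate 3, and from 3 to 2129 when any 1 array was left out. The count over all genes without replicate 2 is not given here, so the call in that setting cannot be set against it. Cd24, a surface glycoprotein of immature B cells and of many epithelia, stood at -1.58 in morning females (SE 0.43, limma adjusted p = 0.0558). Of 15 genes of the lymphotoxin and NF-kappaB2 pathway, 0 passed; Ltbr, the lymphotoxin receptor, differed by 0.15, 0.29 and -0.30 (SE 0.11 each) in night females, night males and morning females.

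Of 12 follicular dendritic and lymphoid stromal genes 0 passed, with medians of 0.08, -0.17 and -0.07 in the same order. In the list of lymphoid chemokines and receptors, 0 of the 10 tested genes other than Cxcl13 passed. Cxcl12, a chemokine of many stromal cells, differed by -0.19, 0.16 and 0.04 (SE 0.25 each). The high endothelial venule list had 0 of 6 genes past the test, with Selp, an endothelial adhesion molecule, at -0.74, -1.27 and -0.06 (SE 0.28 each).

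**Figure D5:**
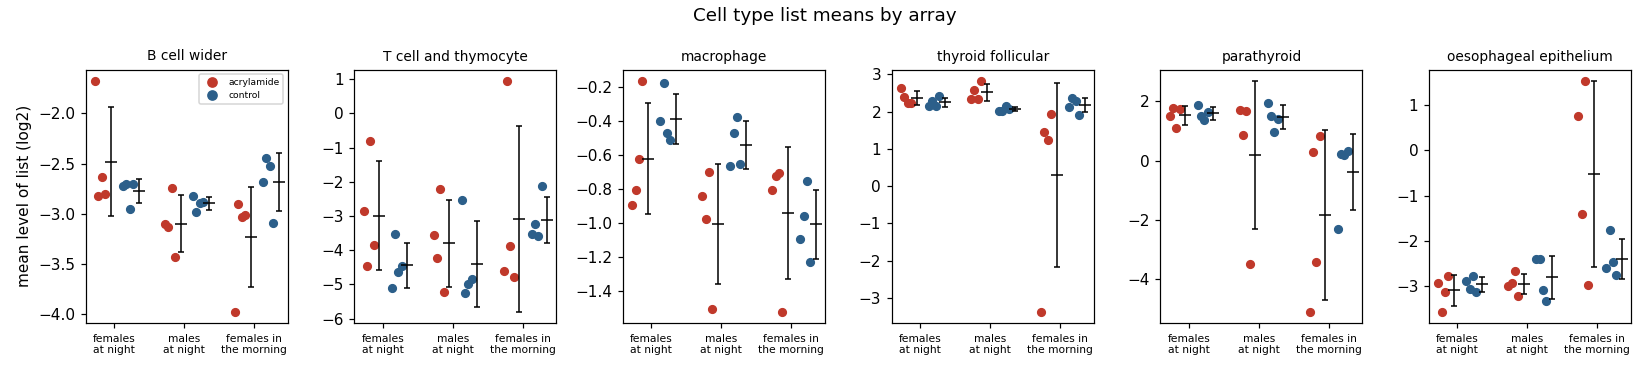
Mean level of 6 cell type lists on each array (vertical axes, log2) in the 3 strata (horizontal axes), acrylamide left of control, with group mean and SD (n = 4). Single arrays stand apart, among them acrylamide replicate 1 of night females for the wider B cell list (-1.68) and acrylamide replicate 1 of morning females for the thyroid follicular list (-3.37) and acrylamide replicate 3 of morning females for the oesophageal list (1.52).

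Between night and morning in control females, 48.6% of genes passed the test (20.8% higher and 27.8% lower at night; the split turns to more higher than lower with quantile normalization), and this comparison cannot be told apart from slide and scan session. Cxcr5 (-1.84, SE 0.43, limma adjusted p = 0.0014), Ccr7 (-1.35, SE 0.27), Cd79a (-2.47, SE 0.56) and Pax5 (-1.99, SE 0.24) were lower at night, and Ccl21 was higher (0.69, SE 0.21, limma adjusted p = 0.009). With normexp and quantile normalization Cxcr5, Ccr7 and Cd79a stood at -0.30, -0.36 and -0.34, and Cd79a no longer passed (limma adjusted p = 0.0634). Cd79a was not well above background on any night array of control females, so the size of its difference is uncertain. Ms4a1, which was not well above background on any control array, still differed by -1.26. Whether other dim probes differed alike was not tested. Cxcl13 differed by 0.10 (SE 0.31, 95% interval -0.55 to 0.75, limma adjusted p = 0.816). Between males and females among night controls 0.00984% of genes passed and 0 of the 7 tested genes of this set did; Cxcl13 differed by -0.29 (SE 0.31). Males lay on slide 2 and night females on slide 1, so sex cannot be told apart from slide.

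The genes whose deviations from the group means were most like those of Cxcl13 over the 24 arrays were Spock2 (r = 0.80), Ccnjl (0.75), Vwa5b2 (0.75), Bpifa1 (0.74) and Clec12a (0.73), picked as the highest of 20317. None of the 5 is in either B cell list. Each of the 5 was lowest of its group on acrylamide replicate 1 of morning females, the array with little thyroid signal and the lowest Cxcl13. For Cd79a, C1ql2 (0.80), Nedd9 (0.73), Hsfy2 (0.70) and Glycam1 (0.70) were among the 5 most alike of the genes with a symbol, at ranks 3, 4, 9 and 12 of all 20317, and Glycam1 was highest on control replicate 3 of morning females and next highest on acrylamide replicate 1 of night females. By list, the median r with Cxcl13 was 0.49 for 5 parathyroid genes, 0.43 for 13 thyroid follicular genes and 0.08 for 15 wider B cell genes, against 0.01 over all genes. These correlations share arrays, among them acrylamide replicate 1 of morning females, which had the lowest follicular and parathyroid means, and are given as a description.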

How the data were processed

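Total RNA of thyroid glands was hybridised to 1-colour Agilent rat arrays, 1 sample per array. The processed signal, an intensity after background removal, was written by Agilent Feature Extraction 10.1.1.1 per the file headers, with flags for spots well above background; positions are on rn4. The deposited series matrix holds log2 values that matched the log2 processed signal minus the median of each array, and was used as an alternative. Here uneven and outlier spots were dropped, replicate spots averaged on the log2 scale, and the 75th percentile over all 30367 probes subtracted. Probes well above background on at least 3 of 4 arrays in at least 1 group were kept (23450), and the brightest probe of each gene was taken (20318 genes). Group means were fitted to all 24 arrays with limma 3.58.1 in R 4.3.3 (files read with the package data.table, version 1.17.8), with 18 residual degrees of freedom and 2-sided tests. Scripts were tested on simulated data. Night arrays, all of scan session 1, had 0 saturated probes and morning arrays, of session 2, had 188 to 469; at night acrylamide cannot be told apart from array row. The number of arrays limits the precision. The genes, lists and tests were chosen with earlier results of these data known. Named list genes are those past the threshold with acrylamide and the 2 brightest of a list; Cd79b, Ms4a1 and Pax5 are given whatever their values, and the genes most like Cxcl13 or Cd79a are the 5 with the highest r among those with a symbol, of which 1 for Cd79a is not reported here. Alternatives were other scalings, filters, background corrections, array weights, slide or replicate terms, leaving out arrays and other covariates; the oesophageal and parathyroid covariates and the omission of acrylamide replicate 3 of morning females were added after seeing the data.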

Additional observations from a re-analysis of the deposited data

Results flagged for a closer look

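Single arrays stood far from the other 3 of their group in 11 of 78 checks of a gene or list within a group, while chance gives about 1 in 20. Among the genes these were Cd79a at -3.80 and Ms4a1 at -4.87 on acrylamide replicate 1 of night females, Cxcl13 at -0.45 on control replicate 4 of night females, and Ccl19 at 0.0213 on control replicate 4 of night males. Among the list means, the wider B cell list stood apart on acrylamide replicate 1 of night females (-1.68), acrylamide replicate 1 of morning females (-3.97) and control replicate 3 of night females (-2.96). The T cell and thymocyte list did so on acrylamide replicate 2 of morning females (0.94) and control replicate 1 of night males (-2.52). The macrophage list was low on acrylamide replicate 4 of morning females (-1.52), and the thyroid follicular list on acrylamide replicate 1 of the same group (-3.37).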

How the results depend on the processing

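The Cxcl13 difference stayed negative in every stratum under every alternative run. Leaving out 1 array at a time it ran from -1.11 to -0.70 in night females, -0.79 to -0.46 in night males and -2.40 to -1.79 in morning females; with the B cell mean as covariate these ranges were -1.02 to -0.65, -0.76 to -0.41 and -2.46 to -1.87, and -1.29 to -1.08 for the mean of the strata. The thyroid follicular covariate gave -1.71 in morning females. Counts of genes past the threshold moved far more. In morning females, with 422 (86 higher, 336 lower), they were 12 (4 higher) with median centring, 943 (332 higher) with quantile normalization, 999 (299 higher) with normexp, 12 with the series matrix, 98 with no filter, 3 with array weights, 0 with the stratum fitted alone (2716 at an unadjusted p under 0.05), 86 with slide as a term, 4 without the 3 arrays, 1695 without acrylamide replicate 3 as well, and 3 to 2129 leaving out 1 array. For the mean of the strata, with 1, they were 0 with median centring and the series matrix, 5 with normexp, 2 with array weights, 94 without the 4 arrays, and 0 to 28 leaving out 1 array. In night males, with 0 (2768 at an unadjusted p under 0.05), they were 3 with normexp and without the 4 arrays, 2 with the series matrix, 1 with no filter and 0 to 8 leaving out 1 array. For males minus females in controls, with 2, they were 1 with quantile normalization, 0 with normexp, 1 without the 3 or the 4 arrays and 1 to 3 leaving out 1 array. For the acrylamide effect, night minus morning, with 0, there was 1 without the 3 arrays, 191 without the 4 and 0 to 290 leaving out 1 array. With the replicate block the count was 2 in night males and 2 for the mean of the strata; same-numbered arrays correlated at -0.23 to 0.35, so the numbers were not taken as pairs. For night minus morning in control females 4224 were higher and 5655 lower, against 5998 and 4750 with quantile normalization; median centring moved all genes by 0.27 there and by 0.17 in night males. Of 1957 values for single genes and correlations, 1 lost its call, Cd79a between night and morning under normexp (-0.34, limma adjusted p = 0.0634), and 62, none of them called, changed sign. The causes were not tested.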
